A study of Homo sapiens with 6 samples.

Results

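The genes described here act in mitosis and on the spindle. They are 41 genes given by symbol, from the mitotic kinases and cyclins to the checkpoint, the kinetochore, the spindle motors and cytokinesis. Each was read at the probe set with the highest mean over the 6 arrays among the probe sets annotated to that gene alone. All 41 were measured, out of 19775 genes read in this way.

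RNA of MCF10A, an immortal but non-tumorigenic human breast epithelial line, was measured on Affymetrix arrays. The labels give C/EBPbeta-2, a protein form made from the CEBPB gene, for 3 arrays. For the other 3, called control here, they name only MCF10A cells and do not say whether these carry an empty vector. The comparison asks which genes differ with the isoform. Both groups were grown in the same medium with horse serum, insulin, hydrocortisone, epidermal growth factor and cholera toxin, with no treatment. The sources used here do not give the way the isoform was introduced, nor whether those cells are a clone or a pool. Replicates are labelled biological with no word on separate cultures, so p-values cover the spread between these samples, which may be technical.

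In dividing cells CDK1 with its cyclins starts mitosis, the spindle attaches to the kinetochores, and a checkpoint holds the anaphase-promoting complex until every chromosome is attached. Most of these genes are transcribed in G2 and mitosis and are low in resting cells, so their RNA is widely used as a measure of how many cells divide. MCF10A cells divide in culture when epidermal growth factor is present. On an array of bulk RNA, a larger share of cells in mitosis and more RNA per mitotic cell cannot be told apart.

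The fitted difference, C/EBPbeta-2 minus control on the log2 scale, was above 0 for all 41 genes, but none of them passed the test. The differences ran from 0.20 for KIF4A to 1.001 for ECT2, with a median of 0.54, a fold of 1.46. Over all 19775 genes the median was 0.009, and 51.9% of the differences were above 0. Limma called 0 of the 41 at an adjusted p under 0.05, where it called 52 of all genes (0.263%), 19 of them higher with C/EBPbeta-2 (0.0961%). At an unadjusted p under 0.05, 6 of the 41 were higher and 0 lower, against 2.66% of all genes that were higher. The 3 C/EBPbeta-2 arrays all lay above the 3 control arrays for 8 of the 41, against 4.62% of all genes. These 41 genes vary together from array to array, so their common sign is not 41 separate observations. They were also chosen with earlier results of these data known, so the shares of all genes beside them are description and not a test. With 3 arrays per group the 95% interval of the fold reached past 2 for 33 of the 41, against 3552 of all 19775 genes.

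**Figure D1:**
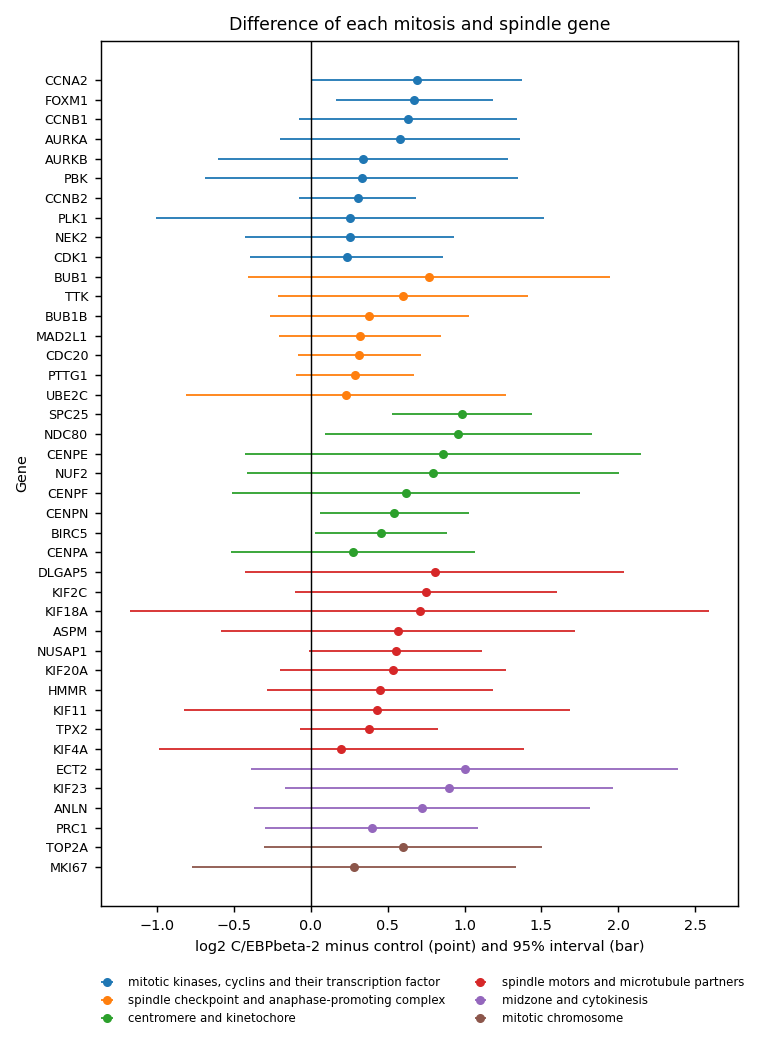
Fitted log2 difference (C/EBPbeta-2 minus control, point) and its 95% interval (bar) for each of the 41 genes, coloured by role, from 3 arrays per group. Every point lies above 0, and the intervals of 6 genes (CCNA2, FOXM1, SPC25, NDC80, CENPN and BIRC5) lie wholly above it.

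The 41 genes also varied between the arrays of a group, and in each group 1 pair of arrays was further apart than the groups were. Set against each gene's own mean over the 6 arrays, the median of the 41 genes was -0.01, 0.71 and 0.10 (log2) on C/EBPbeta-2 replicates 1 to 3. It was 0.05, -0.56 and -0.23 on control replicates 1 to 3. C/EBPbeta-2 replicate 2 was thus the highest array of the set and control replicate 2 the lowest. Of the 41 genes, 31 had their highest value on C/EBPbeta-2 replicate 2 and 23 their lowest on control replicate 2, against 18.5% and 20.9% of all genes. Within the C/EBPbeta-2 group, replicate 2 exceeded replicate 1 by a median of 0.77, and within the control group replicate 1 exceeded replicate 2 by 0.73. The other 4 pairs within a group had medians of 0.13 to 0.51. Of the 9 pairs across the groups, 8 had a median above 0, from 0.05 to 1.34, with 25 to 41 of the 41 genes higher on the C/EBPbeta-2 array. The exception was C/EBPbeta-2 replicate 1 against control replicate 1, with 16 of the 41 higher and a median of -0.18.

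**Figure D2:**
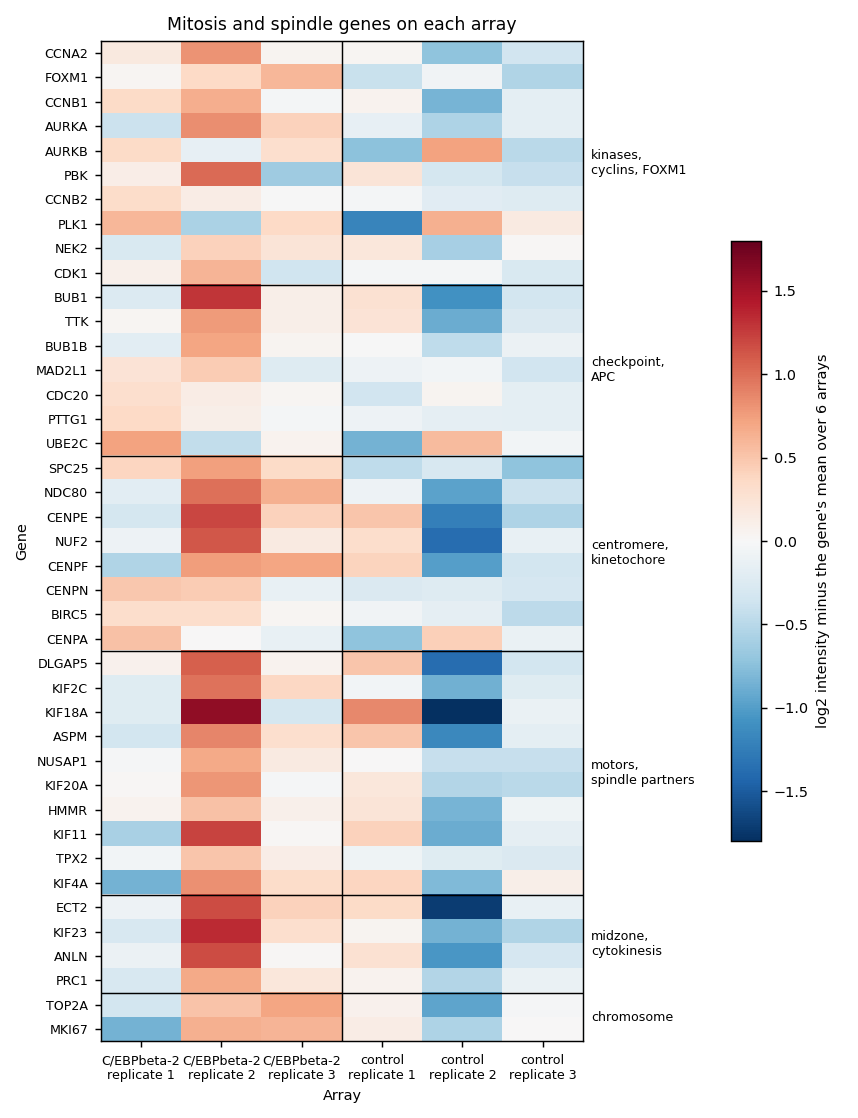
Log2 intensity of each of the 41 genes (rows, grouped by role, APC being the anaphase-promoting complex) on each of the 6 arrays (columns), less the gene's mean over the 6 arrays. Red is above that mean and blue below. The column of C/EBPbeta-2 replicate 2 is mostly red and that of control replicate 2 mostly blue, while PLK1, AURKB, UBE2C and CENPA show the opposite on control replicate 2.

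The control probe sets of the same arrays varied in a related order. Mean 18S ribosomal RNA values (log2) were 12.19, 5.62 and 10.09 for C/EBPbeta-2 replicates 1 to 3 and 8.05, 12.17 and 10.33 for control replicates 1 to 3. Poly-A spike-in RNA, added during labelling, was low on the array with the least 18S in each group (3.85 with C/EBPbeta-2, 3.98 in control) and 7.21 to 8.25 on the other 4. In each group that array also had the highest median of the 41 genes. Within the low spike-in level, 1 array against 1, the difference was above 0 for 41 of the 41, with a median of 0.63. That pair was not matched in 18S, at 5.62 with C/EBPbeta-2 and 8.05 in control. Within the high level, 2 arrays against 2, it was above 0 for 41 of the 41 as well, with a median of 0.49. A difference above 0 at both levels was found for 31.1% of all genes.

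**Figure D3:**
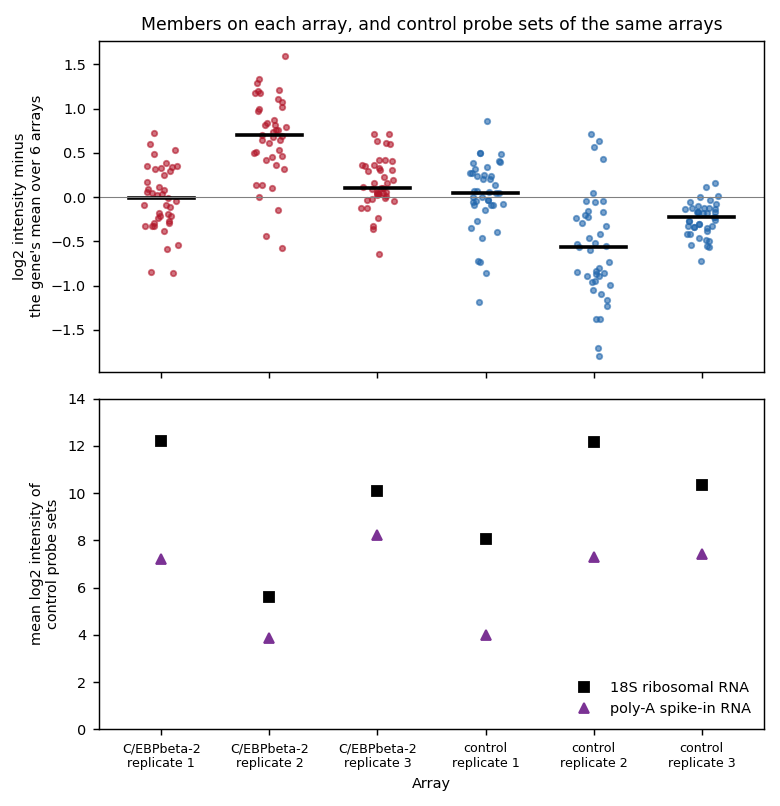
Upper panel, log2 intensity of each of the 41 genes less its own mean over the 6 arrays (points) and the median of the 41 (bar), by array. Lower panel, the mean log2 intensity of the 18S ribosomal RNA and poly-A spike-in control probe sets on the same arrays, lowest on C/EBPbeta-2 replicate 2, where the 41 genes have their highest median, 0.71.

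With the spike-in level as a covariate the median difference was 0.57, and 16 of the 41 genes had an unadjusted p under 0.05. With the ACTB 3' minus 5' value, a measure of shortened RNA or cDNA, it was 0.48 with 19 such genes, and with the 18S level 0.44 with 11. The number of such genes also rose over all 19775, in either direction. It was 1068 without a covariate, and 1315, 1542 and 1530 with the spike-in, ACTB and 18S covariates. Limma called 0 of the 41 in each of these fits. The ACTB value was 1.32 on C/EBPbeta-2 replicate 2, 1.48 on control replicate 1 and -0.04 to 0.64 on the other arrays. The same value for GAPDH did not rise with it, at 0.22 and 0.12 on those arrays and 0.21 to 0.32 on the others. Leaving out C/EBPbeta-2 replicate 2 lowered the median from 0.54 to 0.34, with 37 of the 41 above 0.

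The promoters show what the members share outside the arrays. The RefSeq promoter table (GRCh38.p14) held 38 promoters for 34 of the 41 genes, each running from 250 bases before to 50 bases after a transcription start. AURKA, FOXM1, PBK, TTK, UBE2C, BIRC5 and TPX2 had no entry. Promoters of cell cycle genes are known for the cell cycle homology region, written TTTGAA, which binds the complexes that repress these genes in resting cells and activate them with FOXM1 in G2. They are also known for CCAAT boxes, bound by NF-Y, further upstream. The 150 bases before the start are printed for 6 genes, 5′ to 3′ on the gene's strand, with TTTGAA and CCAAT (or their reverse complements) in capitals. CCNB2 and SPC25 stand for genes whose groups did not overlap, KIF18A and ECT2 for those highest on C/EBPbeta-2 replicate 2, and PLK1 and CDC20 for those in the opposite order of arrays.
CCNB2, chr15:59104996-59105145, plus strand: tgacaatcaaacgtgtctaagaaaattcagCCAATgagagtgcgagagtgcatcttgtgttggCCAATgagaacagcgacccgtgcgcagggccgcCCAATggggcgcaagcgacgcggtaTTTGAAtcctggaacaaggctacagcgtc
SPC25, chr2:168890431-168890580, minus strand: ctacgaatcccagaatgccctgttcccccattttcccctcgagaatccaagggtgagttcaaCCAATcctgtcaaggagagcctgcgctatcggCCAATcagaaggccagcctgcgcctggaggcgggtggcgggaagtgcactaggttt
KIF18A, chr11:28108157-28108306, minus strand: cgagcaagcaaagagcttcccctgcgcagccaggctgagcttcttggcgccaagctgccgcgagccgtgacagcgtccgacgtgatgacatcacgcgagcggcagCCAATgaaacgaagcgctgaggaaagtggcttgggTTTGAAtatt
ECT2, chr3:172750576-172750725, plus strand: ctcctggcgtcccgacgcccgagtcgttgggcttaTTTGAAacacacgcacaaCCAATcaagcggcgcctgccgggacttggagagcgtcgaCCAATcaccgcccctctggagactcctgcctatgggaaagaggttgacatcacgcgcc
PLK1, chr16:23678739-23678888, plus strand: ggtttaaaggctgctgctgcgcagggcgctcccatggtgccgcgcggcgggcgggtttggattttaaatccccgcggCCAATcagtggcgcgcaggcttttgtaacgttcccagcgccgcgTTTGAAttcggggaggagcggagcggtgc
CDC20, chr1:43358831-43358980, plus strand: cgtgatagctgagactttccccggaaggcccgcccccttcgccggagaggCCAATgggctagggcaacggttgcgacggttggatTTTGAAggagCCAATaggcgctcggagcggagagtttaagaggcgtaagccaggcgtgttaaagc

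The 6 stretches hold CCAAT at least once, and 5 of them hold TTTGAA. In SPC25 a TTTGAA and in ECT2 a further CCAAT begin inside the stretch and run past the start, so they are left in lower case. Searched on both strands over the whole promoter, TTTGAA was in 27 of the 38 (71.1%) and in 15.2% of all 35116 promoters of the same length. CCAAT was in 31 of the 38 (81.6%), against 34.6% of all, and both were in 22 of the 38 (57.9%), against 5.90%. The variant TTCGAA was in 2 of the 38, BUB1 and NDC80, against 1.45% of all. The C/EBP palindrome TTGCGCAA was in 0 of the 38 and 0.151% of all, and the looser TTGCNNAA in 2 of the 38, CENPF and BUB1B, against 10.5% of all. These matches describe letters in the window and not bound sites.

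**Figure D4:**
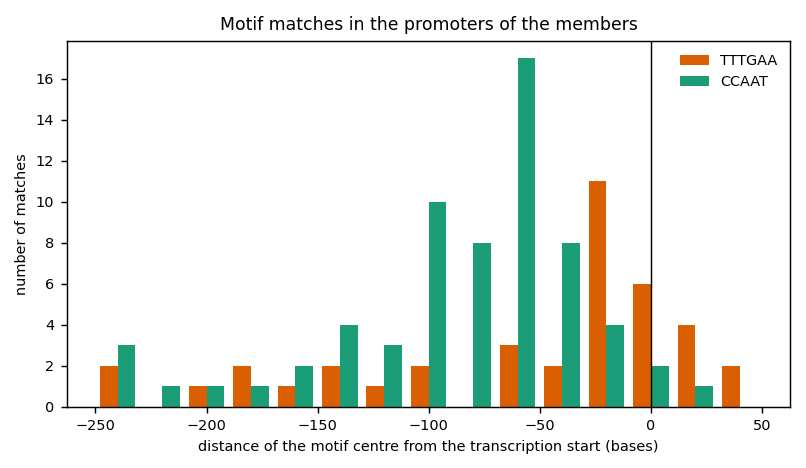
Number of TTTGAA and CCAAT matches, both strands, by distance of the motif centre from the transcription start, over the 38 promoters of the members. The median distance is -25 bases for the 39 TTTGAA matches and -75 bases for the 65 CCAAT matches, negative values being upstream. For 4 genes with 2 promoters the windows overlap, so a site can be counted once for each start.

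The mitotic kinases, their cyclins and FOXM1 had a median difference of 0.33 over 10 genes, with 0 called. At an unadjusted p under 0.05, 2 were higher, against 2.66% of all genes. CCNA2, the cyclin that partners CDKs from S phase into mitosis, read 9.49, 10.13 and 9.37 (log2 intensity) on C/EBPbeta-2 replicates 1 to 3 and 9.36, 8.59 and 8.97 on control replicates 1 to 3. The groups did not overlap, by a narrow margin between C/EBPbeta-2 replicate 3 and control replicate 1. Its difference was 0.69 (SE 0.285, adjusted p = 0.910 by limma). FOXM1, the forkhead factor that activates G2 and mitosis genes, read 8.33, 8.65 and 8.89 with C/EBPbeta-2 and 7.89, 8.23 and 7.74 in control. Here all C/EBPbeta-2 arrays lay above all control arrays, with C/EBPbeta-2 replicate 1 close to control replicate 2. The FOXM1 difference was 0.67 (SE 0.21, adjusted p = 0.630), read at a probe set with probes shared among genes (suffix _x_at).

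CCNB1, a B-type cyclin that activates CDK1, read 10.93, 11.24 and 10.55 with C/EBPbeta-2 and 10.66, 9.75 and 10.42 in control. Control replicate 2 was low, and control replicate 1 lay above C/EBPbeta-2 replicate 3. Its difference was 0.63 (SE 0.30, adjusted p = 1.00). CCNB2, the other B-type cyclin, read 10.75, 10.56 and 10.41 against 10.39, 10.22 and 10.19, groups that did not overlap, with a smaller difference of 0.31 (SE 0.16, adjusted p = 1.00). CDK1, the kinase that drives entry into mitosis, read 10.76, 11.28 and 10.31 against 10.64, 10.63 and 10.40. C/EBPbeta-2 replicates 1 and 2 lay above the 3 control arrays and replicate 3 below them, and without replicate 2 the difference of 0.23 (SE 0.26) became -0.02. The 95% interval of the CDK1 fold was 0.760 to 1.82.

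The remaining 5 kinases had differences of 0.25 to 0.58, and their groups overlapped. AURKA, the spindle-pole kinase, differed by 0.58, and NEK2, which acts at the centrosome, by 0.25. PBK, a kinase active in mitosis, differed by 0.33, and by -0.10 without C/EBPbeta-2 replicate 2. PLK1, the polo-like kinase of mitotic entry, read 8.91, 7.74 and 8.67 against 7.12, 8.95 and 8.47. It was lowest on control replicate 1 and next lowest on C/EBPbeta-2 replicate 2, the order opposite to most of the set. The PLK1 difference was 0.26 (SE 0.53), and -0.275 without control replicate 1. AURKB, the kinase of the chromosomal passenger complex, read 8.20, 7.71 and 8.15 against 7.12, 8.57 and 7.36, a difference of 0.34 (SE 0.39). As for PLK1, C/EBPbeta-2 replicate 1 exceeded replicate 2 and control replicate 2 exceeded replicate 1.

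Genes of the spindle checkpoint and the anaphase-promoting complex had a median difference of 0.32 over 7 genes, with 0 called and 0 at an unadjusted p under 0.05. BUB1, a checkpoint kinase at the kinetochore, read 8.01, 9.54 and 8.35 with C/EBPbeta-2 and 8.52, 7.16 and 7.92 in control. The groups overlapped, since control replicate 1 exceeded C/EBPbeta-2 replicates 1 and 3. Its difference of 0.77 had an SE of 0.49 (adjusted p = 1.00). TTK, the kinase that starts the checkpoint signal, read 8.67, 9.40 and 8.74 against 8.89, 7.75 and 8.38, a difference of 0.60 (SE 0.34). BUB1B, which with MAD2L1 binds and holds CDC20, read 8.76, 9.65 and 8.99 against 8.94, 8.48 and 8.84, a difference of 0.38 (SE 0.27). In both, control replicate 1 lay among the C/EBPbeta-2 arrays.

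MAD2L1 differed by 0.32 (SE 0.22) with overlapping groups, and its other 2 probe sets gave -0.08 and 0.805. PTTG1, the securin that holds back separase, read 12.27, 12.02 and 11.88 against 11.83, 11.75 and 11.74. Its groups did not overlap, but the difference was 0.29 (SE 0.16, adjusted p = 1.00), at a probe set with shared probes, so related copies of the gene may contribute. CDC20, the activator of the anaphase-promoting complex, read 10.60, 10.44 and 10.34 against 9.96, 10.35 and 10.13, with control replicate 2 just above C/EBPbeta-2 replicate 3, and differed by 0.315 (SE 0.17). UBE2C, the ubiquitin-conjugating enzyme of that complex, read 11.26, 10.09 and 10.59 against 9.68, 11.10 and 10.48. Its highest arrays were C/EBPbeta-2 replicate 1 and control replicate 2, the order seen for PLK1, and the difference was 0.23 (SE 0.435). It was -0.14 without control replicate 1 and -0.08 without C/EBPbeta-2 replicate 1.

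Centromere and kinetochore genes had a median difference of 0.71 over 8 genes, with 0 called. At an unadjusted p under 0.05, 4 were higher, against 2.66% of all genes. Groups did not overlap for 3, all higher with C/EBPbeta-2, against 4.62% of all genes. SPC25, a subunit of the NDC80 complex that binds microtubules, read 7.57, 7.92 and 7.53 with C/EBPbeta-2 and 6.72, 6.89 and 6.46 in control. All 3 C/EBPbeta-2 arrays lay clear of the 3 control arrays, and SPC25 had the smallest p of the 41 genes. Its difference was 0.99 (SE 0.19, adjusted p = 0.185 by limma), a fold of 1.98 with a 95% interval of 1.44 to 2.72. Over 19 other settings its adjusted p ranged from 0.0692 to 0.605, so it was called in none of them, and its difference without any 1 array was 0.86 to 1.09. It was 1.20 at the low spike-in level and 0.88 at the high one.

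NDC80, the subunit that gives the complex its name, read 8.26, 9.45 and 9.09 against 8.36, 7.49 and 8.07. Control replicate 1 exceeded C/EBPbeta-2 replicate 1, so the groups overlapped, and the difference was 0.96 (SE 0.36, adjusted p = 0.818). NUF2, its partner in the complex, differed by 0.80 (SE 0.505). CENPE, a kinesin at the kinetochore, read 7.49, 9.01 and 8.23 against 8.31, 6.58 and 7.25, a difference of 0.86 (SE 0.54) with control replicate 1 above C/EBPbeta-2 replicates 1 and 3. CENPF, a large protein of the outer kinetochore, differed by 0.62 (SE 0.47).

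CENPN, which binds the centromeric nucleosome, read 9.63, 9.60 and 9.02 against 8.88, 8.91 and 8.84. The control arrays were tight (SD 0.04, n = 3) and lay below all C/EBPbeta-2 arrays. The CENPN difference was 0.54 (SE 0.20, adjusted p = 0.801), and its other 3 probe sets gave 0.76, 0.75 and, at the dimmest, -0.105. BIRC5, the passenger complex protein survivin, read 10.12, 10.12 and 9.83 against 9.74, 9.64 and 9.33, groups that did not overlap, with a difference of 0.455 (SE 0.18, adjusted p = 0.867). Its 3 other probe sets gave 0.07 to 0.29. CENPA, the histone H3 variant of the centromere, differed by 0.275 (SE 0.33), again with C/EBPbeta-2 replicate 1 above replicate 2 and control replicate 2 above replicate 1, and by -0.02 without control replicate 1.

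Spindle motors and their microtubule partners had a median difference of 0.54 over 10 genes, with 0 called and 0 at an unadjusted p under 0.05. DLGAP5, which stabilises kinetochore fibres, read 8.94, 9.94 and 8.92 with C/EBPbeta-2 and 9.36, 7.49 and 8.53 in control. Control replicate 2 stood far below the rest, and the difference of 0.81 (SE 0.515) was 0.32 without it. KIF2C, a kinesin that takes microtubules apart at the centromere, read 9.16, 10.35 and 9.74 against 9.33, 8.51 and 9.15, a difference of 0.75 (SE 0.355). The groups of KIF2C met only through control replicate 1, which exceeded C/EBPbeta-2 replicate 1. KIF18A, a kinesin that damps chromosome movement, read 6.69, 8.50 and 6.58 against 7.76, 5.10 and 6.78. It had the widest spread of the 41 genes, and its fold of 1.63 had a 95% interval of 0.442 to 6.03. Its log2 difference was 0.71, and -0.015 without control replicate 2.

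Of the other 7 genes in this role, TPX2, the activator of AURKA on the spindle, was the one whose groups did not overlap. It read 10.36, 10.90 and 10.52 against 10.33, 10.18 and 10.14, a difference of 0.38 (SE 0.19, adjusted p = 1.00). NUSAP1, a microtubule-bundling protein, differed by 0.55 (SE 0.235, adjusted p = 0.960), with control replicate 1 only just above C/EBPbeta-2 replicate 1. ASPM, a spindle-pole protein, differed by 0.57, KIF20A, a midzone kinesin, by 0.53, and HMMR, a spindle-associated hyaluronan receptor, by 0.45. KIF11, the motor that separates the poles, differed by 0.43 (-0.07 without C/EBPbeta-2 replicate 2), and KIF4A, a chromosome-bound kinesin, by 0.20 (-0.16 without that array and -0.15 without control replicate 2). Both had overlapping groups.

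The 4 genes of the spindle midzone and cytokinesis had a median difference of 0.81, with 0 called and overlapping groups in each. ECT2, the exchange factor that activates RhoA at the cleavage plane, read 8.87, 10.14 and 9.37 with C/EBPbeta-2 and 9.30, 7.25 and 8.83 in control. The value of control replicate 2 carried much of its difference of 1.001 (SE 0.58, adjusted p = 1.00), which was 0.395 without that array. The other 2 ECT2 probe sets gave 0.38 and 0.04. KIF23, the kinesin of the centralspindlin complex, read 7.28, 8.91 and 7.88 against 7.62, 6.72 and 7.03, a difference of 0.90 (SE 0.445). ANLN, the scaffold of the contractile ring, read 10.27, 11.56 and 10.40 against 10.65, 9.33 and 10.08, a difference of 0.72 (SE 0.46). In both, control replicate 1 lay above C/EBPbeta-2 replicate 1. PRC1, which crosslinks the midzone microtubules, differed by 0.40 (SE 0.29).

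For the mitotic chromosome, TOP2A, the topoisomerase that untangles sister DNA, read 10.06, 10.90 and 11.10 with C/EBPbeta-2 and 10.46, 9.44 and 10.36 in control. Control replicates 1 and 3 lay above C/EBPbeta-2 replicate 1, and the difference was 0.60 (SE 0.38, adjusted p = 1.00). MKI67, the Ki-67 protein that coats mitotic chromosomes and marks dividing cells, read 8.20, 9.70 and 9.67 against 9.19, 8.50 and 9.06. C/EBPbeta-2 replicate 1 was the lowest of the 6 arrays for MKI67, and the difference was 0.28 (SE 0.44), with a fold interval of 0.584 to 2.52. The 3 other probe sets of MKI67 gave 0.28 to 0.37.

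The array order split the members. For 30 of the 41, C/EBPbeta-2 replicate 2 exceeded replicate 1 and control replicate 1 exceeded replicate 2, an order found in 32.8% of all genes. For 6 of the 41, PLK1, AURKB, CDC20, UBE2C, CENPA and CENPN, both inequalities ran the other way, as in 41.4% of all genes. The other 5 were CCNB2, FOXM1, MAD2L1, PTTG1 and SPC25. TTTGAA was found in the promoters of 18 of the 25 genes with an entry in the first set and 4 of the 5 in the second, and CCAAT in 19 of 25 and 5 of 5. The array order can also differ between probe sets of 1 gene. CCNA2 at its other probe set read 9.54, 9.35 and 7.95 against 8.26, 9.20 and 7.92, where control replicate 2 was the highest control array instead of the lowest. That probe set gave 0.49.

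The 41 genes had 80 probe sets in all. The 39 not used for the values above belonged to 21 genes, and 31 of them had a difference above 0, with a median of 0.29. The 31 brighter ones, with a mean above every array median, gave 26 above 0 and 5 below. The lowest was -0.36, at an AURKA probe set with a mean of 4.92, near the array medians of 4.46 to 4.56. Another AURKA probe set gave 0.60, beside the 0.58 of the one read here. Probe sets with shared probes were read for 19 genes, 16 ending in _s_at and 3 in _x_at.

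Other mitosis genes, a list of 75 of which 74 were measured, had a median difference of 0.32, with 0 called and 71 above 0. At an unadjusted p under 0.05, 7 were higher, against 2.66% of all genes. CENPU, a centromere protein, read 9.44, 9.89 and 9.50 with C/EBPbeta-2 and 8.62, 8.67 and 8.70 in control, clear of each other, a difference of 0.945 (SE 0.17, adjusted p = 0.165). CENPO, of the same centromere complex, differed by 0.75 (SE 0.20, adjusted p = 0.440) with groups that did not overlap. SGO2, a protector of centromeric cohesion, differed by 0.94 (SE 0.73, adjusted p = 1.00). At the high spike-in level the median of this list was 0.18, and at the low level 0.66.

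The 29 measured of 30 S-phase genes had a median difference of 0.38, with 0 called and 29 above 0. At an unadjusted p under 0.05, 1 was higher, against 2.66% of all genes. The largest were in MCM10, a replication initiation factor (0.775), CCNE2, a cyclin of the G1 to S step (0.77), and RRM2, a ribonucleotide reductase subunit (0.74), with overlapping groups and adjusted p = 1.00. The S-phase median was 1.001 at the low spike-in level and 0.12 at the high one, where 19 of the 29 were above 0. The medians were 0.63 and 0.49 for the 41 mitosis and spindle genes, and 0.66 and 0.18 for the 74 other mitosis genes. At the high level 57 of those 74 were above 0, so the fall was not particular to S-phase genes. Whether the lists differ was not tested.

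**Figure D5:**
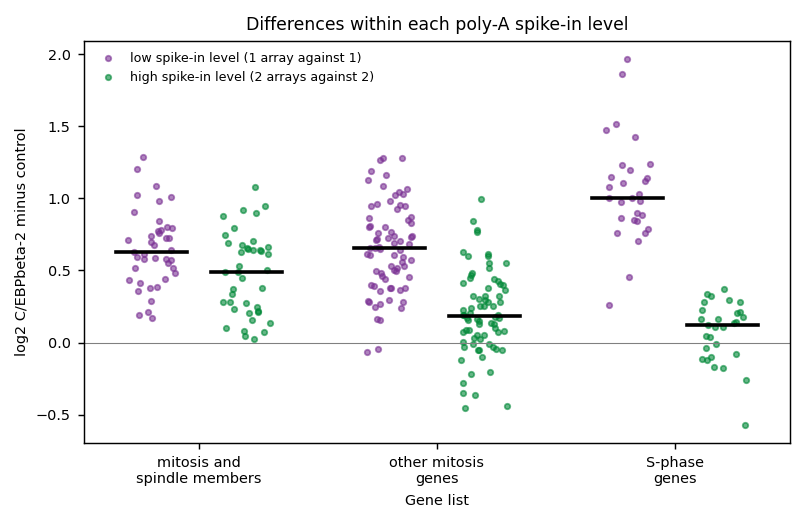
Log2 difference, C/EBPbeta-2 minus control, of each gene (point) and the list median (bar), within the low poly-A spike-in level (1 array against 1) and the high level (2 against 2). The 41 mitosis and spindle genes lie above 0 at both levels. From the low to the high level the median falls from 0.66 to 0.18 for the other mitosis genes. For the S-phase genes it falls from 1.001 to 0.12.

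Among 12 measured G1 control genes of 13, 0 were called, the median was 0.16 and 9 were above 0. CDKN1C, the CDK inhibitor p57, read 5.31, 5.92 and 6.03 with C/EBPbeta-2 and 10.90, 8.26 and 9.51 in control. Its groups were far apart, with a wide spread in control, and the difference was -3.80 (SE 0.63, adjusted p = 0.125). It was -4.98 at the low spike-in level and -3.215 at the high one. CCND2, a D-type cyclin, differed by 0.51, and CDKN1A, the inhibitor p21, by 0.44, both with adjusted p = 1.00.

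Of 9 basal mammary epithelial markers 6 were measured, and 0 of them had a mean below the lowest array median. Their summed intensity was 12067 to 17495 with C/EBPbeta-2 and 18233 to 26322 in control. KRT14, the brightest of them in control, was called lower (log2 difference -3.005, adjusted p = 0.0347 by limma). Of the 6, 4 had a difference below 0 and 2 above. CDH3 differed by -0.955 (adjusted p = 0.985) and ITGB4 by -0.51, neither of them called. LAMB3 differed the other way, by 1.17 (adjusted p = 0.831), and was not called. Of 8 fibroblast markers 5 lay below every array median, COL1A2 and COL3A1 among them, and their summed intensity was 349 to 567 with C/EBPbeta-2 and 726 to 3675 in control. This sum follows DCN, whose difference was -2.61 (adjusted p = 0.445). The 6 measured of 8 leukocyte markers summed to 213 to 255 and 169 to 182, with PTPRC below every array median. CD14 differed by 0.92 (adjusted p = 0.260). The part of these markers in the differences of the 41 genes was not tested.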

How the data were processed

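The values deposited by the authors are linear-scale intensities, 1 per probe set and array, and RMA is the one tool named in the submitters' processing notes. The notes give no version, and the step back from RMA's usual log2 scale is unstated. Array medians were 22.0 to 23.6, and no detection calls were used. The number of arrays limits the precision.

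Values were transformed to log2 without a pseudocount. Of 54675 probe sets, 62 control probe sets were set aside, and 41091 of the rest carried 1 gene symbol, 1801 several and 11721 none. Limma 3.58.1 in R 4.3.3 (lmFit, eBayes) was fitted to all 54613, 3 arrays against 3, two-sided. The brightest probe set on average stood for each gene, with Benjamini-Hochberg adjustment over 19775 genes. The procedure was tested on simulated data with independent noise, which lack the variation that genes share from array to array. Intervals are limma's 95% intervals. Python 3.11.15 was used for counts and plots.

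The members and lists were chosen with earlier results of these data known. Array values were given for the 3 members of each role with the largest difference, for CDK1, CCNB1, TOP2A and MKI67, and for members whose groups did not overlap. PLK1, AURKB, UBE2C and CDC20 were added after their values were seen. For other lists, up to 3 genes with the largest difference were named.

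Alternatives left out each array, added the replicate number as a block, renormalized, filtered, weighted, pooled variances over genes only (chosen after seeing the data), used other probe sets, or added the spike-in, ACTB or 18S level. Gene symbols came from the platform annotation, and 41037 of the 41091 matched RefSeq by gene ID.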

Additional observations from a re-analysis of the deposited data

How the results depend on the processing

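Limma called 0 of the 41 genes under each of 19 alternatives, with 1 to 19 at an unadjusted p under 0.05. The 19 came with the ACTB covariate, where 1542 of all 19775 genes had such a p. The median difference kept its sign in all 19 and within both spike-in levels. It was 0.34 to 0.70 without 1 array, lowest without C/EBPbeta-2 replicate 2 and highest without C/EBPbeta-2 replicate 1, and 0.40 to 0.57 under the other alternatives with a test.

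Without 1 array, 33 of the 41 genes kept their sign and 8 did not. The ranges were -0.016 to 0.47 for CDK1, -0.275 to 0.64 for PLK1, -0.10 to 0.73 for PBK, -0.14 to 0.57 for UBE2C, -0.017 to 0.56 for CENPA, -0.069 to 0.83 for KIF11, -0.16 to 0.68 for KIF4A and -0.015 to 1.31 for KIF18A. Without _x_at and _s_at probe sets AURKA gave -0.36 and MAD2L1 -0.077, both at other probe sets, and 33 genes remained. KIF4A gave -0.019 with the 18S covariate, where the cause was not tested.

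The number of all genes called, 52, was 7 to 57 without 1 array, 17 with a pseudocount of 16, 122 with array weights and 106 with the ACTB covariate. With the replicate number as a block it was 0 of 19775, with 847 at an unadjusted p under 0.05, and the median of the 41 was 0.54. The deviations of same-numbered arrays correlated at -0.52, -0.60 and 0.34, and not every array correlated best with its own number. C/EBPbeta-2 replicate 2 and control replicate 1, the arrays lowest in 18S in their groups, correlated at 0.665. C/EBPbeta-2 replicate 1 and control replicate 2, the highest, correlated at 0.651. Variation that goes with the 18S level could hide a pairing by number. These correlations therefore cannot decide whether the numbers pair the samples.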
